A study of Mus musculus with 23 samples.

Results

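Transcripts of 9 genes of the complement system, C1qa, C1qb, C1qc, C4b, C3, Cfb, Cfp, C3ar1 and C5ar1, were followed across 5 groups of brain macrophages sorted 1 day after an experimental stroke. They were taken by symbol from a table of 33280 genes counted in 23 RNA sequencing libraries, and all 9 had a row. The table held microglia (MG) and subdural central nervous system-associated macrophages (sdCAMs, the macrophages of the leptomeninges and of the perivascular spaces). The study asked how such cells respond to a stroke after they were depleted and had come back.

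All mice were Ccr2CreERT2/+ R26tdT/tdT. Every mouse was gavaged for 7 days, received tamoxifen (2 mg per day) around the end of the gavage, and had thrombin injected into the middle cerebral artery 8 weeks later, so that each group holds stroke brains and none holds brains without stroke. The gavage was BLZ945 (200 mg/kg), an inhibitor of the colony-stimulating factor 1 receptor on which these macrophages depend, or its vehicle (CTL). Tamoxifen switches on the red protein tdTomato in cells that express Ccr2 at that time, mainly monocytes, and in their progeny. A tdT- sdCAM is therefore a cell without the label, and a monocyte-derived cell that escaped recombination would also be sorted as tdT-. There were 5 libraries each of MG CTL, of MG BLZ945, of tdT- sdCAMs from CTL mice and of tdT- sdCAMs from BLZ945 mice, and 3 of tdT+ sdCAMs from BLZ945 mice. Each CTL library came from 1 animal, and the BLZ945 libraries were pools of 2 animals except those labelled F2, which came from 1. The choroid plexus was removed before the sort, MG were gated as CD206- and sdCAMs as CD206-intermediate to high.

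Complement is a cascade of plasma and tissue proteins that tags targets and calls in phagocytes. In the classical pathway the C1q hexamer, built from the products of C1qa, C1qb and C1qc, binds a target and leads to cleavage of C4 and C2, whose fragments form an enzyme that cleaves C3. The alternative pathway amplifies the deposited C3 with factor B (Cfb) and is stabilized by properdin (Cfp). The small fragments C3a and C5a act on the G protein-coupled receptors C3aR (C3ar1) and C5aR1 (C5ar1) of myeloid cells. Most plasma complement is made by the liver, but brain macrophages are a major source of C1q in the brain.

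Promoters are shown for both C1q genes for which the reference table had one, since the C1q transcripts were abundant in every library, and for Cfp, the member that differed most between sdCAMs and MG. The table matched 6 of the 9 members. The stretches are the 250 bases before the RefSeq gene start (GRCm38.p6), all on the minus strand, printed 5′ to 3′ in the direction of transcription, at chr4:136886201-136886450 for C1qb, chr4:136892915-136893164 for C1qc and chrX:20931556-20931805 for Cfp. Capitals mark matches on either strand to GAGGAA (a core bound by the myeloid factor PU.1 and other ETS factors), TATAAA (the TATA box) or TGANTCA (the AP-1 site); these motifs do not share letters with each other here.
C1qb: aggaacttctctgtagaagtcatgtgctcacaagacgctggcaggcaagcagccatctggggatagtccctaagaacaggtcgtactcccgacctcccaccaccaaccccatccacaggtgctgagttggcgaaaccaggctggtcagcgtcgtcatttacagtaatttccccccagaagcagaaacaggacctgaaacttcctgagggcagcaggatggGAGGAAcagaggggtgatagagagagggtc
C1qc: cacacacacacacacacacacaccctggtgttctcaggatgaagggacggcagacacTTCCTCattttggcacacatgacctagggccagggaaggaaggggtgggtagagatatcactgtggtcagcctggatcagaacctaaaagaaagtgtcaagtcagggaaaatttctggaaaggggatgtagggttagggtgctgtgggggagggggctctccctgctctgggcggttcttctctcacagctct
Cfp: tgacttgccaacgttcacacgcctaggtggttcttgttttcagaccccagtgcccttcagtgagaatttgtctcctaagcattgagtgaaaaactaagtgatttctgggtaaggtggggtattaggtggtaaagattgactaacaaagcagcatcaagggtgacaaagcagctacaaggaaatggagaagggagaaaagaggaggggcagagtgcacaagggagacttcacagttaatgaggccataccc
Both C1q promoters hold 1 match to GAGGAA, at position -30 in C1qb and at position -193 in C1qc relative to the gene start, and the Cfp promoter holds no match to any of the 3 motifs. Among all 32851 promoters of the table, 23.3% held GAGGAA, 12.4% TATAAA and 6.75% TGANTCA in the same window. Of the other members with a promoter, C3ar1 held a TATAAA at position -235 and a TGANTCA at position -22, and C3 and C5ar1 held none of the 3.

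Library totals ranged from 9433960 to 13276081 counts. Levels are given as counts per 1000000 (CPM), scaled by TMM factors over all 23 libraries; on this scale 3 counts, taken as the limit that a count of 0 allows, were worth 0.23 to 0.331 CPM and cover counting error only. The sorts held their labelled cells by marker: the summed level of 6 MG markers was 17103 to 26107 CPM in MG and 1152 to 2355 CPM in sdCAM libraries, and that of 6 sdCAM markers was 9802 to 16473 CPM in sdCAMs and 10.5 to 50.5 CPM in MG. In the BLZ945 F3 animals the 6 choroid plexus epithelium markers summed to 554 CPM in MG, 156 CPM in tdT- and 1784 CPM in tdT+ sdCAMs, against a median of 7.42 CPM or less in each group. The tdT- BLZ945 F1 library had 121 CPM of Ccr2 and a neutrophil marker sum of 74.1 CPM, the highest of each. Results that use BLZ945 libraries were therefore also computed without the F3 libraries.

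C1q was among the most abundant products of all 5 groups. The 3 subunit transcripts together took 2.71% ± 0.189 of all counts in MG CTL, 2.59% ± 0.436 in MG BLZ945, 2.58% ± 0.289 in the tdT- CTL group, 2.93% ± 0.518 in tdT- BLZ945 (SD, n = 5 each) and 3.08% ± 0.328 for tdT+ BLZ945 (SD, n = 3). C1qa was at 7094, 6554, 7224, 6457 and 5910.3 CPM in the MG CTL libraries F1, F2, F3, M1 and M2. In MG BLZ945 the same labels gave 5995, 8751, 6634, 6396 and 5320.5 CPM. The ranges overlap, and the F2 library, which is the 1-animal library, was the highest. C1qa was at 6988, 6277, 7525, 6272 and 8086 CPM in tdT- CTL, at 6023, 9912, 8146, 8622 and 7689 CPM in tdT- BLZ945, and at 9122, 7347 and 7635 CPM in tdT+ BLZ945 F2, F3 and M2. Again F2 was the highest of both BLZ945 sdCAM groups. The 3 tdT+ libraries lay narrowly above all 5 MG CTL libraries (lowest 7347 against highest 7224 CPM), while every other pair of groups overlapped.

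**Figure D1:**
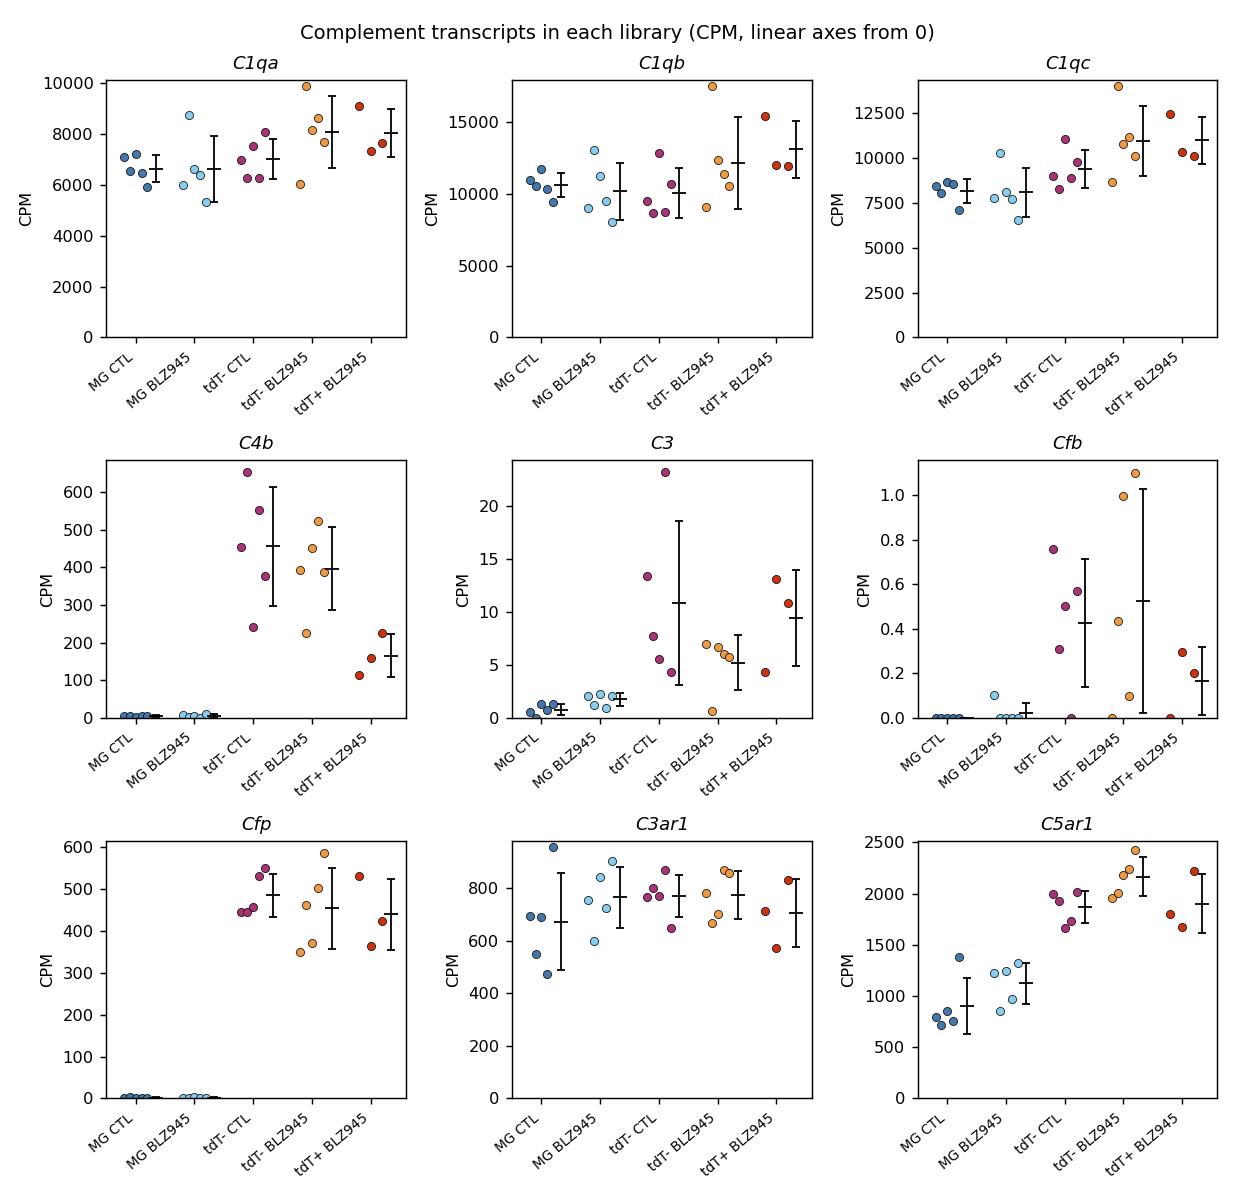
Level of each of the 9 complement transcripts in CPM (linear axes from 0) in every library of the 5 groups, with the mean and SD of each group beside its points. The C1q subunits and C3ar1 overlap between most groups, C5ar1 is higher in sdCAMs, and C4b and Cfp reach 652 and 587 CPM in sdCAMs and at most 10 and 3.65 CPM in MG.

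C1qb ranged from 9479 to 11723 CPM in MG CTL, from 8087 to 13096 CPM in MG BLZ945, from 8679.9 to 12865 CPM in tdT- CTL, from 9093 to 17511 CPM in tdT- BLZ945 and from 11933 to 15427 CPM in tdT+ BLZ945. C1qc ranged from 7066 to 8676 CPM in MG CTL and from 6555 to 10238 CPM in MG BLZ945. In sdCAMs C1qc ranged from 8238 to 11016 CPM (tdT- CTL), from 8647 to 13969 CPM (tdT- BLZ945) and from 10116 to 12455 CPM (tdT+ BLZ945). The highest library of each subunit in MG BLZ945, tdT- BLZ945 and tdT+ BLZ945 was F2, in all 3 sorts. As for C1qa, the tdT+ libraries lay above the MG CTL libraries for C1qb and C1qc, a pair of groups that differ in both treatment and cell type and were not tested against each other. The share of all genes that separate these groups was not computed, so the separation is not read as particular to C1q.

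The 3 subunits are needed together for C1q, so the ratios of their counts within a library, which do not depend on scaling, were compared. C1qb to C1qa was 1.6 in MG CTL and 1.54 in MG BLZ945, and among sdCAMs 1.43 (tdT- CTL), 1.49 (tdT- BLZ945) and 1.63 (tdT+ BLZ945; geometric means). C1qc to C1qa was 1.23, 1.22, 1.33, 1.35 and 1.36 in the same order. The 2 ratios were tested in 7 comparisons by a two-sided exact permutation test, and 0 of the 14 tests passed after Benjamini-Hochberg adjustment, while 3 had an unadjusted p under 0.05. C1qc to C1qa was 1.11-fold higher in tdT- BLZ945 than in MG BLZ945 (exact permutation p = 0.00794, the smallest this design allows, adjusted p = 0.111), with no overlap between the groups. A single comparison thus could not pass over the 14 tests, even with groups that do not overlap. Its ratio was also 1.11-fold higher in tdT+ BLZ945 than in MG BLZ945 (exact permutation p = 0.0357, the smallest this design allows, adjusted p = 0.222). The C1qb to C1qa ratio was 1.12-fold lower in tdT- CTL than in MG CTL (exact permutation p = 0.0476, adjusted p = 0.222). The largest of the 14 differences between group means was 1.14-fold (C1qb to C1qa, higher in tdT+ BLZ945 than in tdT- CTL; adjusted p = 0.365, exact permutation p = 0.143). Within the same animals or pools C1qc to C1qa was higher in sdCAMs than in MG in 5 of 5 pairs of CTL, in 5 of 5 pairs of tdT- BLZ945 and in 3 of 3 pairs of tdT+ BLZ945, by 0.12, 0.14 and 0.18 on average on the log2 scale. The exact paired permutation test gave p = 0.0625, p = 0.0625 and p = 0.25, in each case the smallest that so many pairs allow, so that a paired test could not pass here.

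**Figure D2:**
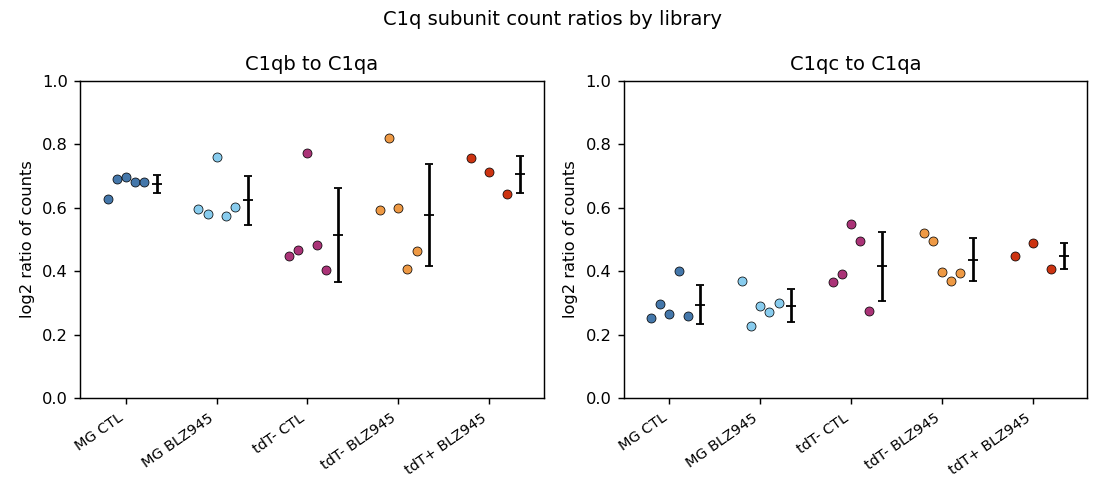
log2 ratio of C1qb counts (left) and of C1qc counts (right) to C1qa counts in each library, by group, with the mean and SD of the group beside the points. C1qc to C1qa lies between 0.23 and 0.37 in MG BLZ945 and between 0.37 and 0.52 in tdT- BLZ945 before rounding without overlap, and the mean C1qb ratio of tdT- CTL is 0.16 below that of MG CTL on this scale.

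C4b, a component of the classical pathway that is cleaved after C1q has bound its target, separated the 2 populations. MG CTL held 4.56, 6.18, 2.22, 6.45 and 5.59 CPM, and MG BLZ945 held 8.48, 2.84, 4.75, 0 and 10 CPM. The tdT- CTL sdCAMs held 455, 652, 240.4, 552 and 378 CPM, the tdT- BLZ945 sdCAMs 393, 226, 451, 524 and 388 CPM, and the tdT+ BLZ945 sdCAMs 113, 158 and 225 CPM. Every sdCAM library was above every MG library, and each tdT+ library was below each tdT- library, the nearest being 225 and 226 CPM. The share of all genes that separate all sdCAM from all MG libraries was not computed. In GENCODE M21, 34.6% of the 50-base windows of C4b also occur in C4a, so that the C4b count depends on how reads shared by both genes were counted, which the sources used here do not give.

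C3, the component at which the pathways meet, was a rare transcript. It was at 0.547, 0, 1.28, 0.764 and 1.3 CPM in MG CTL and at 2.12, 1.25, 2.29, 0.972 and 2.12 CPM in MG BLZ945. The tdT- CTL sdCAMs held 13.4, 7.75, 5.61, 23.2 and 4.38 CPM, the tdT- BLZ945 sdCAMs 6.96, 0.649, 6.69, 6.05 and 5.73 CPM, and the tdT+ BLZ945 sdCAMs 4.34, 13.1 and 10.9 CPM. The F2 library of tdT- BLZ945, with 6 counts, fell among the MG values, and the other sdCAM libraries were above all MG libraries.

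Cfp, whose product properdin stabilizes the C3-cleaving enzyme of the alternative pathway, was at 1.64, 3.13, 0.341, 1.95 and 1.91 CPM in MG CTL and at 1.92, 1.75, 3.65, 0.265 and 1.44 CPM in MG BLZ945. In tdT- CTL it was at 445, 445, 457, 531 and 550.0 CPM, in tdT- BLZ945 at 349, 462, 372, 503 and 587 CPM, and in tdT+ BLZ945 at 532, 365 and 425 CPM. All 13 sdCAM libraries were thus above all 10 MG libraries, a separation whose share over all genes was not computed, and the 3 sdCAM groups overlapped. Cfb, the protease precursor of the alternative pathway, was at the limit of detection: MG held 1 count in 10 libraries, tdT- CTL held 9, 4, 5, 0 and 7 counts, tdT- BLZ945 held 0, 4, 11, 1 and 10 counts, and tdT+ BLZ945 held 0, 3 and 2 counts. It did not pass the filter on low counts in the fits reported here, so 8 of the 9 members were tested in each comparison. Where it was tested, it was called higher in tdT- CTL than in MG CTL without a filter (edgeR adjusted p = 0.027) and with DESeq2 (DESeq2 adjusted p = 0.047), on 25 counts against 0, and was called in no other comparison. Its mean level in tdT- CTL was at least 1.68-fold higher than in MG CTL, taking 3 counts per library as the floor. Of its 50-base windows 73% also occur in Gm20547, an annotation that overlaps it on the same strand (GENCODE M21).

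The receptors were present in all groups. C3ar1 was at 693, 550.2, 689.7, 474 and 957 CPM in MG CTL and at 756, 598, 844, 724 and 902 CPM in MG BLZ945. It was at 768, 799.7, 769, 868 and 649 CPM in tdT- CTL, at 783, 666, 701, 871 and 858 CPM in tdT- BLZ945 and at 713, 573 and 831 CPM in tdT+ BLZ945, so that all groups overlapped. C5ar1 was at 793, 719.7, 853, 760 and 1377 CPM in MG CTL and at 1221, 856, 1242, 973 and 1326 CPM in MG BLZ945. In tdT- CTL it was at 1991, 1927, 1667, 1728 and 2015 CPM, in tdT- BLZ945 at 1959, 2004, 2185, 2244 and 2426 CPM, and in tdT+ BLZ945 at 1803, 1671 and 2222 CPM. The lowest sdCAM library (1667 CPM) was above the highest MG library (1377 CPM), and the share of all genes for which this holds was not computed.

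Divided by exon length (CPM per kilobase of merged exons, GENCODE M21), the levels in tdT- CTL sdCAMs ran from C1qb (9290.5 ± 1599.6) over C1qa (6759 ± 761), C1qc (4858 ± 553), C5ar1 (726 ± 61.6), Cfp (279.7 ± 29.3), C3ar1 (179 ± 18.4) and C4b (80 ± 27.8) to C3 (2.11 ± 1.5) and Cfb (0.151 ± 0.102; SD, n = 5). In MG CTL the order began alike, with C1qb at 9759 ± 757, C1qa at 6392 ± 509, C1qc at 4221 ± 336, C5ar1 at 350.4 ± 105 and C3ar1 at 156 ± 42.9 CPM per kilobase. Cfp (1.03 ± 0.574), C4b (0.878 ± 0.301) and C3 (0.151 ± 0.106) were next in MG CTL (SD, n = 5). The ranges of mean ± SD overlapped for Cfp and C4b in MG CTL and for no neighbours in the order of tdT- CTL.

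The comparison of sdCAMs with MG asks which complement transcripts distinguish macrophages of the brain boundaries from those of the parenchyma of the same brains. In the CTL animals 4 of 8 tested members, C3, C4b, C5ar1 and Cfp, were higher in tdT- sdCAMs and 0 were lower (edgeR quasi-likelihood test, adjusted p under 0.05 over all genes), where 25.6% of 12697 genes were called, 15.3% higher and 10.3% lower. Cfp rose 268-fold (log2 fold change 8.07, SE 0.42, edgeR adjusted p = 3.42e-12) and C4b 90.6-fold (6.50, SE 0.57, adjusted p = 1.18e-08). C3 was 13.7-fold higher (3.78, SE 0.77, edgeR adjusted p = 0.000762) and C5ar1 2.07-fold higher (1.05, SE 0.16, adjusted p = 2.35e-05). C1qa, C1qb, C1qc and C3ar1 did not pass, with log2 fold changes of 0.08, -0.08, 0.20 and 0.19; their 95% intervals lay within -0.42 and 0.51. In bulk libraries fewer cells that make a transcript and less of it per cell cannot be told apart. The median log2 fold change of the 8 tested members was 0.62, and that of all genes tested was -0.01.

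In the BLZ945 animals tdT- sdCAMs were set against MG of the same animals or pools, and 4 of 8 tested members, C1qc, C4b, C5ar1 and Cfp, were higher and 0 lower. Here 32.4% of 12697 genes were called, 18.3% higher and 14.1% lower. Cfp was 252-fold higher (log2 fold change 7.98, SE 0.42, edgeR adjusted p = 3.6e-12), C4b 76.8-fold (6.26, SE 0.57, adjusted p = 1.8e-08) and C5ar1 1.94-fold (0.96, SE 0.16, adjusted p = 6.55e-05). C1qc was 1.36-fold higher (0.45, SE 0.13, edgeR adjusted p = 0.0134), a call that was lost without the BLZ945 M1 libraries (edgeR adjusted p = 0.0503). C1qa (0.30, SE 0.14, edgeR adjusted p = 0.11) passed when the animal or pool was a block (0.30, edgeR adjusted p = 0.044) and without the MG F2 library (0.41, adjusted p = 0.0228) or the tdT- F1 library (0.38, adjusted p = 0.0341). C3 missed the threshold (1.58, SE 0.71, edgeR adjusted p = 0.0944) and passed without the tdT- F2 library that had 6 counts of it (1.86, edgeR adjusted p = 0.0337) and with DESeq2 (1.63, DESeq2 adjusted p = 0.032).

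The tdT+ BLZ945 sdCAMs were also compared with MG BLZ945, which the previous comparison shares. The members C1qc, C3, C4b, C5ar1 and Cfp, 5 of 8 tested, were higher and 0 were lower, where 25.2% of 13790 genes were called, 14.6% higher and 10.6% lower. Cfp was 241-fold higher (log2 fold change 7.92, SE 0.42, edgeR adjusted p = 7.63e-13), C4b 31.8-fold (4.99, SE 0.56, adjusted p = 2.63e-07) and C5ar1 1.69-fold (0.76, SE 0.18, adjusted p = 0.00246). C3 was 5.36-fold higher (2.42, SE 0.78, edgeR adjusted p = 0.0239) and C1qc 1.35-fold (0.44, SE 0.15, adjusted p = 0.032). Both of these calls lay near the threshold. Over all refits the log2 fold change ran from 2.11 to 2.77 for C3 and from 0.34 to 0.54 for C1qc. The call of C3 was lost with the animal or pool as a block (2.42, edgeR adjusted p = 0.0602) and without MG F2, MG M1, tdT+ F3 or tdT+ M2 (edgeR adjusted p from 0.051 to 0.0846). That of C1qc was lost without MG F1, F3, M1 or M2 or tdT+ F2 or F3 (edgeR adjusted p from 0.0501 to 0.169). Without both F3 libraries C1qc (0.48, edgeR adjusted p = 0.079) and C3 (2.23, adjusted p = 0.109) did not pass, and C4b, C5ar1 and Cfp did.

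**Figure D3:**
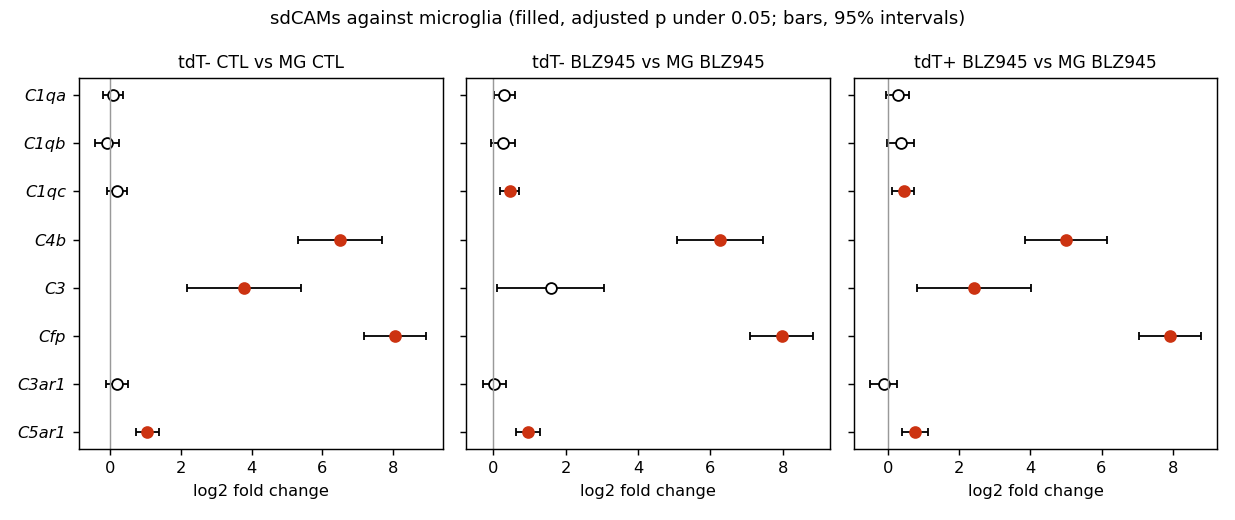
log2 fold change of the 8 tested members between sdCAMs and MG in 3 comparisons, with 95% intervals; filled points passed an edgeR adjusted p of 0.05. C4b and Cfp lie between 4.99 and 8.07 in all 3 panels, C5ar1 between 0.76 and 1.05, and C1qa, C1qb and C3ar1 are open in each.

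Some marker lists of cells that could accompany sdCAMs were higher in sdCAMs than in MG, and others were not. The 6 fibroblast markers summed to 25.3 to 32.9 CPM in tdT- CTL, 15.5 to 62.8 CPM in tdT- BLZ945, 17.8 to 23.5 CPM in tdT+ BLZ945 and 0.153 to 2.38 CPM in MG, and 4, 6 and 2 of them reached 5 CPM in a library of the 3 sdCAM groups. Col3a1 was at 0 in all tdT+ libraries. Neuron markers summed to 48.2 to 126 CPM in sdCAMs and 5 to 13.1 CPM in MG, whereas astrocyte markers ran from 60.8 to 267 CPM in sdCAMs and from 150.0 to 302 CPM in MG. Endothelial or mural cell markers overlapped (6.2 to 55.6 CPM in sdCAMs, 5.26 to 31.6 CPM in MG), as did oligodendrocyte markers (150.3 to 385 and 115 to 182 CPM). Neutrophil and lymphocyte markers overlapped too. The 6 monocyte markers summed to 1949.6 to 3977 CPM in sdCAMs and 6.97 to 24.2 CPM in MG, of which F13a1 alone made up 1927 to 3972 CPM in sdCAMs. The other 5, Ccr2 among them, summed to 5.89 to 231 CPM in sdCAMs, highest in tdT- BLZ945 F1, and 3.73 to 15.7 CPM in MG. The 6 dendritic cell markers ran the other way, from 214 to 951 CPM in sdCAMs and from 1201 to 1919 CPM in MG. Siglech, which the MG marker list also holds, made up 1193 to 1912 CPM of the latter, and the other 5 were higher in sdCAMs (30.9 to 782 CPM, highest in tdT- CTL M1) than in MG (2.46 to 9.8 CPM). The part of these cell types in the levels of the members was not tested.

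Whether depletion and return changed complement transcripts was asked within each population. In MG, 0 of 8 tested members were called between BLZ945 and CTL, where 0.408% of 11264 genes were, and 0 members had an unadjusted p under 0.05, where 1492 genes did; DESeq2 called 268 genes and 0 members. The C1q subunits were bounded closely, with log2 fold changes of -0.02 for C1qa (95% interval -0.28 to 0.23), -0.07 for C1qb (-0.33 to 0.18) and -0.03 for C1qc (-0.27 to 0.21). C5ar1 was at 0.30 (-0.06 to 0.67) and C3ar1 at 0.17 (-0.18 to 0.52). Without MG CTL M2, the library at 1377 CPM, C5ar1 was at 0.51 and still did not pass (edgeR adjusted p = 0.0642). With all libraries the C5ar1 values of MG CTL and MG BLZ945 overlapped. The scarce transcripts were bounded loosely, C4b at 0.04 (-1.35 to 1.43), Cfp at -0.01 (-1.32 to 1.31) and C3 at 1.13 (-0.27 to 2.53), and the intervals of C4b and Cfp reach past a 2-fold change in both directions.

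In tdT- sdCAMs, 0 of 8 tested members were called between BLZ945 and CTL, where 0% of 13076 genes were; over all genes 697 had an unadjusted p under 0.05, none of them a member, and DESeq2 called 62 genes and 0 members. C1qa, C1qb and C1qc were at 0.22 (95% interval -0.06 to 0.49), 0.29 (-0.06 to 0.63) and 0.23 (-0.04 to 0.51). C5ar1 was at 0.23 (-0.03 to 0.49), C4b at -0.18 (-0.76 to 0.39), Cfp at -0.08 (-0.41 to 0.26), C3ar1 at 0.03 (-0.27 to 0.32) and C3 at -1.04 (-2.44 to 0.36). The size of the C3 value rested on single libraries, since it was at -0.56 without tdT- CTL M1, which held 23.2 CPM, and at -0.77 without tdT- BLZ945 F2, which held 0.649 CPM (edgeR adjusted p = 1 and 0.999). The difference between the BLZ945 effect in tdT- sdCAMs and that in MG passed for 0 of 8 members, where 0.0394% of 12697 genes were called. Only C3 had an unadjusted p under 0.05 there (difference of log2 fold changes -2.20, SE 1.00, edgeR adjusted p = 0.541), with means of 0.778 and 1.75 CPM in MG CTL and BLZ945 and of 10.9 and 5.22 CPM in tdT- CTL and BLZ945.

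Cells with and without the monocyte label were compared in brains given BLZ945, and tdT+ cells also with tdT- CTL, so that the tdT+ libraries serve in both comparisons. Of the members 0 of 8 were called in either, where 0.206% of genes were called against tdT- BLZ945 and 0.283% against tdT- CTL. C4b came nearest. It was 2.42-fold lower in tdT+ than in tdT- BLZ945 (log2 fold change -1.28, 95% interval -1.98 to -0.58, edgeR adjusted p = 0.296) and 2.75-fold lower than in tdT- CTL (-1.46, -2.17 to -0.75, edgeR adjusted p = 0.107). The groups did not overlap in either comparison, which held for 3.4% and 8.16% of the 13076 genes. DESeq2 called C4b in both (DESeq2 adjusted p = 0.016 and DESeq2 adjusted p = 0.00189). Against tdT- CTL, edgeR also called it without a filter on low counts (adjusted p = 0.0277), with at least 10 counts in every library (adjusted p = 0.039) and without the tdT- CTL F3 library (-1.62, adjusted p = 0.0414). In all other refits C4b did not pass, with edgeR adjusted p up to 0.718 against tdT- BLZ945 and up to 0.481 against tdT- CTL. Among these was the fit with the animal or pool as a block against tdT- BLZ945. Without single libraries edgeR called C4b in 0 of 8 fits against tdT- BLZ945 and in 1 of 8 against tdT- CTL. The fold was of like size in all refits, from -1.05 to -1.56 against tdT- BLZ945 and from -1.25 to -1.76 against tdT- CTL. The other members were close to 0 between tdT+ and tdT- BLZ945: C1qa at -0.03 (95% interval -0.35 to 0.29), C1qb at 0.09 (-0.31 to 0.49), C1qc at -0.01 (-0.33 to 0.30), Cfp at -0.07 (-0.46 to 0.32), C3ar1 at -0.16 (-0.50 to 0.18) and C5ar1 at -0.21 (-0.50 to 0.09). C3 was at 0.84 (-0.74 to 2.41).

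**Figure D4:**
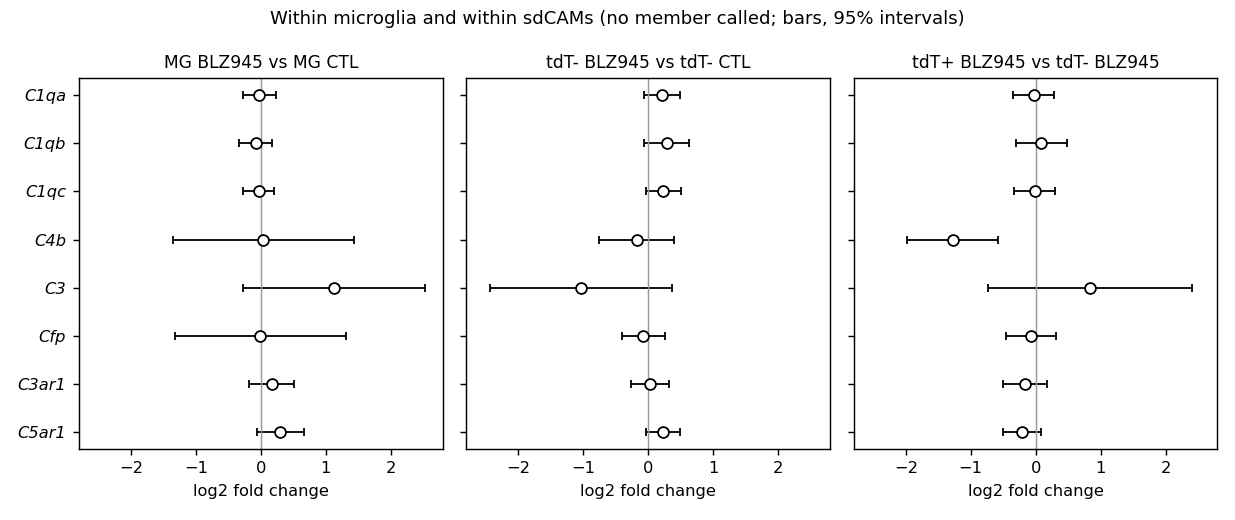
log2 fold change of the 8 tested members with 95% intervals within MG (BLZ945 against CTL), within tdT- sdCAMs (BLZ945 against CTL) and between tdT+ and tdT- sdCAMs of BLZ945 animals. All points are open since none passed an edgeR adjusted p of 0.05; of the intervals only that of C4b between tdT+ and tdT- lies away from 0, from -1.98 to -0.58.

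The wider complement system was read from a list of 53 genes that includes the members. Among its 44 other genes, 21 were tested between tdT- CTL and MG CTL, and 12 were higher and 3 lower in sdCAMs. In the BLZ945 animals 10 of 21 were higher and 2 lower in tdT- sdCAMs, and 10 of 21 were higher and 3 lower in tdT+ sdCAMs. The shares of all genes called are those given above. Part of this excess of higher genes was set by the filter on low counts, since C2, Fcna, C6, Vsig4, Cd55, Serping1 and Susd4, which were too scarce to be tested within MG, entered through the sdCAM libraries. The other 14 were also tested within MG, and of these 6 were higher and 3 lower in tdT- CTL, 4 higher and 2 lower in tdT- BLZ945 and 4 higher and 3 lower in tdT+ BLZ945. Within MG (14 tested) and within tdT- sdCAMs (19 tested) 0 were called between BLZ945 and CTL, and between tdT+ and tdT- sdCAMs 0 were higher and 2 lower of 19 tested, against tdT- BLZ945 and against tdT- CTL. Of the 53 genes, 17 stayed under 1 CPM in every library.

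On the lectin side, Fcna, which encodes ficolin-A, was at 373 ± 67 CPM in tdT- CTL, 739 ± 291 in tdT- BLZ945 (SD, n = 5) and 251 ± 92 CPM in tdT+ BLZ945 (SD, n = 3), and at 0.319 CPM or less on average in MG (log2 fold change 10.13 between tdT- CTL and MG CTL, SE 0.50, edgeR adjusted p = 1.68e-12). Masp1, a protease of the lectin pathway, ran the other way, with 9.76 ± 2.96 CPM in MG CTL and 0.603 CPM in tdT- CTL (-3.99, SE 0.98, edgeR adjusted p = 0.00389). In the classical pathway C2, which overlaps the same annotation as Cfb, was higher in tdT- CTL sdCAMs than in MG CTL (7.35, SE 0.62, edgeR adjusted p = 6.34e-09). The MG CTL means of Fcna and C2, like that of Cd55, lay under the 0.331 CPM that 3 counts are worth in the shallowest library, with 19, 16 and 8 counts over the 5 libraries, so that the size of these fitted folds is poorly set. In the terminal pathway C6 was at 7.3 CPM on average in tdT- CTL and at 0 counts in all 5 MG CTL libraries (edgeR adjusted p = 0.000112). That mean was at least 28.7-fold above a floor of 3 counts per MG CTL library. The tdT- CTL libraries ran from 0.301 CPM (F3, 3 counts) to 13.7 CPM, so the bound holds for the mean and not for each library.

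Among receptors Vsig4, a macrophage receptor for C3 fragments, was at 22 ± 11 CPM in tdT- CTL and 31.9 ± 22.6 CPM in tdT- BLZ945 (SD, n = 5). The latter mean was at least 120.3-fold above a floor of 3 counts per library in MG BLZ945, where all libraries were at 0. The tdT- BLZ945 F2 library held only 5 counts of Vsig4 (0.541 CPM), so the bound holds for the mean and not for each library. Cd93, once described as a C1q receptor, was at 137 ± 19.6 CPM in tdT- CTL and 2.04 CPM in MG CTL (6.06, SE 0.57, edgeR adjusted p = 3.15e-08). Itgam, which encodes the CD11b chain of complement receptor 3, was lower in tdT- CTL than in MG CTL (-1.09, SE 0.15, edgeR adjusted p = 5.13e-06). Of the 5024 exon bases of Itgam, 3450 also lie in Gm49368, an annotation on the same strand (GENCODE M21). CD11b was a gate of the sort, as was the absence of CD11c, for sdCAMs and MG alike. Itgax, which encodes CD11c, lay at 0 in all 5 tdT- CTL libraries against 11.9 ± 1.93 CPM in MG CTL. Of the regulators, Cd55, which speeds the decay of C3 convertases, was at 93.8 CPM in tdT- CTL and 0.136 CPM in MG CTL (9.32, SE 0.83, edgeR adjusted p = 1.46e-08). Vtn, whose product vitronectin restrains the terminal complex, was at 15 and 3.62 CPM in these groups (2.05, SE 0.55, edgeR adjusted p = 0.00754). Clu, encoding clusterin, was called only between tdT+ BLZ945 and MG BLZ945 (3.05, SE 0.77, edgeR adjusted p = 0.00495), and not without the tdT+ F3 library, which held 102 CPM of it beside 6.85 and 19.1 CPM in F2 and M2 (1.33, edgeR adjusted p = 0.23).

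The regulator Cd55 was among the genes of the wider list called between tdT+ and tdT- sdCAMs. Cd55 was at 62.8, 33.1, 34.5, 98.4 and 73.9 CPM in tdT- BLZ945 and at 0.482, 2.97 and 4.1 CPM in tdT+ BLZ945 (-4.60 on the log2 scale, SE 0.60; adjusted p = 0.00146 by edgeR). All 3 tdT+ libraries lay below the 5 tdT- BLZ945 libraries. With the animal or pool as a block Cd55 did not pass (-4.44, edgeR adjusted p = 0.0794). Against tdT- CTL it was also lower in tdT+ (-5.21, SE 0.62, edgeR adjusted p = 0.000606).

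C2 and Fcna were picked here after their values were seen, for being low in tdT+ BLZ945. C2 was at 18.2, 28.2, 33, 41.8 and 31.9 CPM in tdT- BLZ945 and at 0, 0 and 4.3 CPM in tdT+ BLZ945 (-4.42, SE 1.00, edgeR adjusted p = 0.15). It was called higher in tdT+ BLZ945 than in MG BLZ945 (2.82, SE 1.01, edgeR adjusted p = 0.0433) through the M2 library alone, without which it was at -4.19 (adjusted p = 0.115); with the block its adjusted p was 0.296. C6 likewise held 96 counts in tdT+ M2 and 0 in F2 and F3; against MG BLZ945 it was at 6.78 (SE 1.78, edgeR adjusted p = 0.00821), at -1.39 without M2 (adjusted p = 0.657) and at 5.04 with the block (adjusted p = 0.273). Fcna was at 425, 699.5, 496, 1031 and 1045 CPM in tdT- BLZ945 and at 344, 160.1 and 249 CPM in tdT+ BLZ945 (-1.59, SE 0.32, edgeR adjusted p = 0.0611). For C2 and Fcna the tdT+ libraries lay under all tdT- BLZ945 libraries, which held for 3.4% of all genes tested, and neither passed. Against tdT- CTL, C2 was also lower without overlap (-5.01, SE 1.03, edgeR adjusted p = 0.0538), whereas Fcna overlapped (-0.58, SE 0.30, edgeR adjusted p = 0.727) and was itself 2.01-fold higher in tdT- BLZ945 than in tdT- CTL without passing (1.01, SE 0.26, edgeR adjusted p = 0.466). Other genes of the wider list stood the other way between tdT+ and tdT- BLZ945, all with overlap and none past the threshold, among them Cd93 (0.59, SE 0.19, edgeR adjusted p = 0.478), Itgam (0.45, SE 0.20, adjusted p = 0.702) and Clu (1.91, SE 0.79, adjusted p = 0.671).

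**Figure D5:**
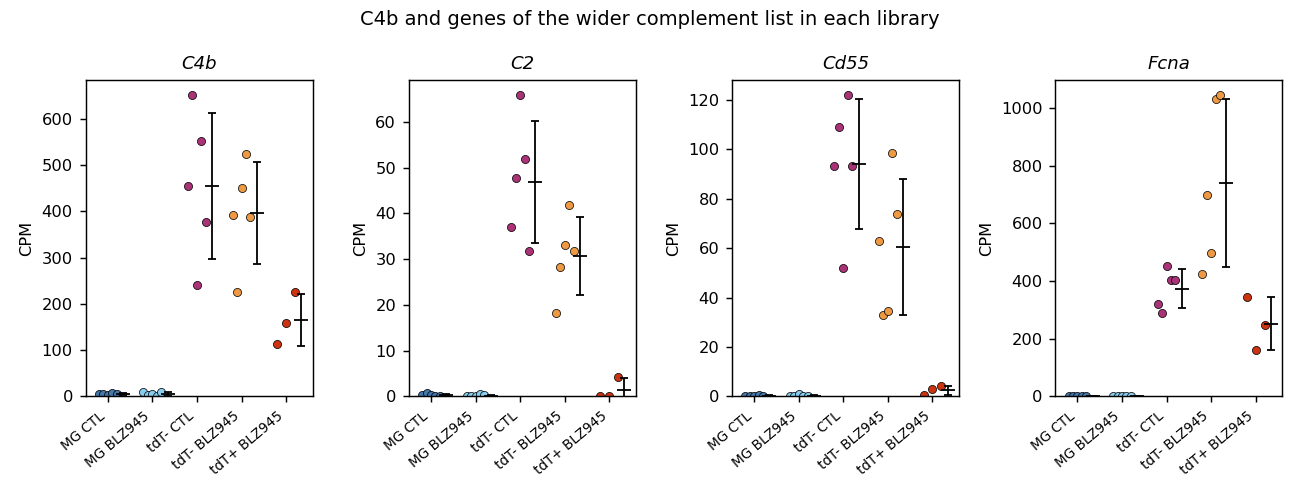
CPM (linear axes from 0) of C4b and of C2, Cd55 and Fcna in every library of the 5 groups, with the mean and SD beside the points; the last 3 genes were picked after their values were seen. In each panel the 3 tdT+ BLZ945 libraries lie below the 5 tdT- BLZ945 libraries, as they do for 3.4% of all genes tested, the tdT+ and tdT- CTL libraries overlap for Fcna, and of these 4 genes only Cd55 passed an edgeR adjusted p of 0.05 there.

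The likeness of profiles was measured as the root mean square difference of log2(CPM + 1) over the 23 libraries, after each gene was centred on the mean of its group means, and it is a description with no test. The members nearest to each other were C1qa and C1qc, at 0.09, with C1qb at 0.12 from C1qa and 0.14 from C1qc. Among 5067 other genes with at least 32 CPM, the nearest to C1qa were Cyba (0.12) and Tmem50a (0.13), to C1qb Tyrobp (0.11) and Vkorc1 (0.12), and to C1qc Cyba (0.11) and Fuca1 (0.11). Cyba encodes a subunit of the phagocyte oxidase and Tyrobp the adaptor DAP12, and all of these genes differed little between the groups. Cfp was nearest to Pla2g7 (0.46) and Clec4n (0.52), C4b to Chp2 (0.80) and Bmp2 (0.81), and C3 to Rbbp8 (0.56) and Dusp1 (0.59). C3ar1 was nearest to Ppp2r1a (0.19) and Phf23 (0.20), and C5ar1 to Tpr (0.23) and Cd63 (0.24). For Cfb the nearest genes, Get3 (0.22) and Hmgn1 (0.23), are those with a flat profile, since its own was near 0 throughout.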

How the data were processed

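Library construction used a SMART-Seq mRNA kit on sorted macrophages of 5 groups. Per the labels, the authors demultiplexed reads with bcl2fastq 2.20, aligned them with STAR 2.7.11a and counted them per gene with featureCounts 2.0.6, and they deposited raw counts of 33280 genes in 23 libraries. The annotation is given as Gencode M36 and the genome as mm10 or GRCm39; which of these, the strand setting and the treatment of reads that fit several genes are not given in the sources used here.

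From these counts, 8 comparisons were fitted over the whole table with edgeR 4.0.16 (quasi-likelihood test, TMM factors, filterByExpr), with Benjamini-Hochberg adjustment over all genes tested and a call at an adjusted p under 0.05; standard errors come from the fold change and its F statistic. The BLZ945 and CTL groups of MG were fitted alone, comparisons among sdCAMs on all 13 sdCAM libraries, comparisons of tdT- sdCAMs with MG on those 20 libraries, and tdT+ against MG on all 23. DESeq2 1.42.0 was an alternative, as were other size factors and filters, a replicate block, and fits without each library. C1q subunit ratios were tested by exact permutation (scipy 1.17.1). Fits were tested on simulated data.

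The same label within a treatment marks the same animal or pool, so it pairs the sorts. The correlation across genes of same-label deviations from the group means averaged 0.11 (MG and tdT- CTL), 0.0817 (MG and tdT- BLZ945), 0.0686 (tdT+ and tdT- BLZ945) and 0.131 (tdT+ and MG BLZ945). Between BLZ945 and CTL the labels are shared by name only. The number of 1 animal stands in the names of both the F2 and M1 BLZ945 libraries, so fits without M1 were added. No 2 libraries of a group agreed within sampling noise (lowest chi-square per gene 15.7).

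Members and lists were chosen with earlier results of these data known. All 9 members are named, and of the other 44 listed genes those called in a comparison and at 5 CPM or more in a group mean, at most 12, by lowest adjusted p; 1 gene that the rule names is not reported here. For likeness, the 2 nearest genes per member are named; genes of the Gm, Rik, Mir, Rpl, Rps and mt families were left out. Promoters and exon lengths come from RefSeq and GENCODE M21 (GRCm38), not from the annotation that was counted.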

Additional observations from a re-analysis of the deposited data

Results flagged for a closer look

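Outlying libraries were looked for in the 35 combinations of a member and a group of 5 libraries in which values differed, and 3 were found by Dixon's criterion at 95%; chance flags about 1 group in 20. C3 was at 0.649 CPM in tdT- BLZ945 F2, where the other libraries of the group lay between 5.73 and 6.96 CPM. C5ar1 was at 1377 CPM in MG CTL M2, where the others lay between 719.7 and 853 CPM. Cfb was at 0.101 CPM, which is 1 count, in MG BLZ945 F1, where the others held 0.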

How the results depend on the processing

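The same members were called in 14 of 17 alternatives for tdT- CTL against MG CTL, in 12 of 19 for tdT- BLZ945 against MG BLZ945, and in 5 of 17 and in 0 of 8 fits without a single library for tdT+ BLZ945 against MG BLZ945. There C1qc kept its call in 9 of 17 alternatives and C3 in 9 of 16. Of the counts of called members and of C1q ratios past the threshold, 166 stayed within 1.5 times of the value reported and 12 did not. The members called between tdT+ and tdT- BLZ945 were 1 with DESeq2 (C4b). Between tdT+ BLZ945 and tdT- CTL they were 1 (C4b) with DESeq2, without a filter and with at least 10 counts in every library, and 0 to 1 when single libraries were left out. With at least 10 counts in every library, which drops the members that are scarce in MG from the test, the members called fell to 1 (tdT- CTL against MG CTL), 2 (tdT- BLZ945 against MG BLZ945) and 2 (tdT+ BLZ945 against MG BLZ945). In the last of these they numbered 3 without the BLZ945 M1 or F3 libraries, the second chosen after seeing the data, and 3 to 4 without single libraries. The cause of the other changes was not tested. The C1q ratios passed in 0 of 14 tests under every alternative run. This says little, since even groups without overlap, C1qc to C1qa in tdT- BLZ945 and MG BLZ945, had an adjusted p of 0.111 (exact permutation test).

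Values near 0 changed sign. For MG BLZ945 against MG CTL these were Cfp (0.01 in a model of all 23 libraries, 0.27 without M1, -0.45 to 0.28 without single libraries), C4b (-0.34 to 0.36), C1qa (-0.15 to 0.05) and C1qc (-0.13 to 0.04). For tdT- BLZ945 against tdT- CTL they were C3ar1 (-0.02 without M1, -0.03 to 0.07 without single libraries), Cfp (-0.20 to 0.01) and the C1qc to C1qa ratio (-0.02 to 0.05). For tdT+ against tdT- BLZ945 they were C1qa (0.05 without F3, -0.12 to 0.07), C1qc (0.03 without F3, -0.09 to 0.10), C1qb (-0.02 to 0.26), Cfp (-0.20 to 0.06) and the C1qc to C1qa ratio (-0.01 to 0.03). For tdT+ BLZ945 against tdT- CTL they were C5ar1 (-0.11 to 0.11) and C3 (-0.52 to 0.28). Against MG, C3ar1 changed sign in tdT- BLZ945 (-0.03 without M1, -0.05 to 0.09) and in tdT+ BLZ945 (0.05 without F3, -0.26 to 0.01). The difference of BLZ945 effects changed sign for Cfp (0.41 without F3, -0.38 to 0.34) and C4b (-0.56 to 0.15). In tdT+ BLZ945 against MG BLZ945 the sign of 2 called results, C2 (2.82) and C6 (6.78), turned on the tdT+ M2 library, with -4.19 to 3.58 and -1.39 to 8.16 without single libraries.

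With the replicate block by animal or pool, C1qb between tdT+ and tdT- BLZ945 was at -0.03; the block changed no call of a member other than those of C1qa and C3 given above. With the block by labels shared only by name, C4b in MG BLZ945 against MG CTL was at -0.29 and C3 in tdT+ BLZ945 against tdT- CTL at 0.21. Levels under 0.331 CPM, the value of 3 counts in the shallowest library, were not told apart from 0, which limits Cfb in MG and the size of the C2, Cd55 and Fcna differences between sdCAMs and MG; C3 was over it in 9 of 10 MG libraries.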

Other observations

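Receptor and regulator genes of the wider list outside the naming rule were also read, and were chosen after their values were seen. C5ar2, the second receptor for C5a, was at 42.1 ± 8.79 CPM in MG CTL, 39.4 ± 7.63 in MG BLZ945, 27.2 ± 6.59 in tdT- CTL, 21.8 ± 12.9 in tdT- BLZ945 (SD, n = 5 each) and 21.2 ± 4.87 CPM in tdT+ BLZ945 (SD, n = 3). It thus stood lower in sdCAMs, opposite to C5ar1, but passed in no comparison (nearest in tdT- BLZ945 against MG BLZ945, at -0.84 on the log2 scale, SE 0.33, adjusted p = 0.0573 by edgeR). Cr1l, which encodes the membrane regulator Crry of rodents, was at 151 ± 3.89 and 171 ± 9.48 CPM in MG CTL and MG BLZ945 and at 137 ± 8.27, 150.4 ± 43.1 and 133 ± 52.8 CPM in tdT- CTL, tdT- BLZ945 and tdT+ BLZ945 (SD, n = 5, and n = 3 for tdT+), and it too passed in no comparison.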
